A study of Mus musculus with 31 samples.

Results

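MicroRNAs of mouse embryonic stem cells were compared between day 12 and day 10 of treatment with 4-hydroxytamoxifen (4-OHT), a drug that switches off a conditional Dicer1 gene in these cells. The comparison asks whether the loss of microRNAs had levelled off by then and which microRNAs still moved. It rests on 6 small RNA libraries, 3 at day 12 and 3 at day 10, of the 31 libraries in the series. All 15 small RNA libraries, which also cover days 0, 4 and 8, entered the model that supplied the error. Every library came from the conditional Dicer mutant cell line DTCM23/49 XY, kept in medium with serum and LIF on gelatin, and all of them carry the label Dicer depleted. The cells of both days received 800 nM 4-OHT, so neither group is a wild type, and day 0 is the untreated state of the mutant line. The labels number the replicates as biological and do not say which Cre drives the deletion. The small RNA tables hold no Dicer1 mRNA, so how much of the gene was lost at day 12 or day 10 is not analysed here.

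The compared items were all mature microRNA identifiers in the count table, 1907 after the copies of an identifier were summed. Of these, 695 had at least 1 read in the 6 libraries. A filter on low counts over all 15 libraries left 260, which were tested. Of these, 135 had a mean of at least 10 reads in the 6 libraries and are called well covered here. Levels are given as RPM, reads per 1000000 reads of the library, unassigned reads included.

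Dicer is the RNase that cuts hairpin precursors into the short duplexes from which mature microRNAs are loaded into Argonaute proteins. When Dicer is lost, new microRNAs are no longer made in most cases, and the molecules already loaded disappear by decay and by dilution as cells divide. A microRNA finds its target messenger RNAs mainly through its seed, the bases near its 5′ end. In mouse embryonic stem cells the miR-290 cluster and the related miR-302 and miR-17 families are the best known microRNAs, and they promote the rapid cell cycle of these cells.

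The sequences below are those of microRNAs on which the results turn, grouped so that members with the same seed stand together. They are mature sequences from RefSeq for GRCm38.p6, the same assembly as the mm10 build of the files, and a sequence was found for 227 of the 260 tested identifiers. Capitals mark the seed, bases 2 to 8 from the 5′ end. The first pair shares a seed and differs outside it, with miR-27a-3p among the microRNAs called lower at day 12.
miR-27a-3p: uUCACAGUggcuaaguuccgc
miR-27b-3p: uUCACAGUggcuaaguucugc
The next 3 share the seed of miR-130, and miR-130a-3p was the member called lower.
miR-130a-3p: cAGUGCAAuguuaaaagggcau
miR-301a-3p: cAGUGCAAuaguauugucaaagc
miR-130b-3p: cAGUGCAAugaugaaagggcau
The miR-25/92 seed is carried by members of several clusters, of which miR-92a-3p was called lower.
miR-92a-3p: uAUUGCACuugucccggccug
miR-25-3p: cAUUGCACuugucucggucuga
miR-363-3p: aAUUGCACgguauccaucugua
The miR-17 seed includes miR-20b-5p, called lower.
miR-20b-5p: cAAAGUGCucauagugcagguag
miR-17-5p: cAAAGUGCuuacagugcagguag
miR-93-5p: cAAAGUGCuguucgugcagguag
The seed of the miR-290 cluster in stem cells is shared with miR-302, and none of its members was called lower.
miR-295-3p: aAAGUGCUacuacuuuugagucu
miR-302d-3p: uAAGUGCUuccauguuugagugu
The remaining sequences belong to other called microRNAs and to the arms of the miR-182 hairpin.
miR-192-5p: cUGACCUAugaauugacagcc
miR-200b-3p: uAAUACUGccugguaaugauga
miR-142a-5p: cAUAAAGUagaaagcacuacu
miR-411-5p: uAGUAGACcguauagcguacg
miR-290b-3p: aAGUGCCCccauaguuugagua
miR-298-5p: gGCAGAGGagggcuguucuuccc
miR-6240: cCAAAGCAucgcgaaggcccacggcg
miR-182-5p: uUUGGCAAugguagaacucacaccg
miR-182-3p: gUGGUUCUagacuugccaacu

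The libraries held between 13177928 and 14850789 reads at day 12 and between 12368631 and 14249019 at day 10. Reads on microRNAs numbered 51984 to 81513 at day 12 and 68932 to 84882 at day 10, so most microRNAs rest on few reads. Alignments below the mapping quality limit took 53.1 to 62.1% of reads at day 12 and 47.6 to 58.6% at day 10, and these were not counted. Replicate 1 of day 12 stood above the other libraries of its day in the total and in several abundant microRNAs. A list of 11 entries, among them miR-2137, miR-5099, miR-6240 and miR-6539, are suspected of lying in ribosomal or other abundant RNA. Together they made up 53.2% ± 9.3 of microRNA reads at day 12 and 47.4% ± 3.0 at day 10 (SD, n = 3 each). At day 0 their share was 1.39% ± 0.18 (SD, n = 3).

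The total of microRNA reads had a lower mean at day 12, but it did not separate the days. They took 0.619, 0.366 and 0.361% of all reads in the day 12 libraries, against 0.686, 0.484 and 0.589% in the day 10 libraries. The first day 12 library lay above 2 of the day 10 libraries, so the groups overlapped. The means were 0.448% ± 0.147 at day 12 and 0.586% ± 0.101 at day 10 (SD, n = 3 each), a ratio of 0.747. An exact two-sided permutation test on the log2 share gave p = 0.3, where the smallest value that 3 against 3 libraries allow is 0.1. The 95% Wilson interval of each share was at most 0.0092 percentage points wide and covers counting error only.

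Without the suspected entries the share was 0.353, 0.143 and 0.160% at day 12, against 0.383, 0.241 and 0.308% at day 10. The ratio of day 12 to day 10 was then 0.657, and the exact permutation test again gave p = 0.3. Within each replicate number the total was lower at day 12 than at day 10. The fold of the total share, day 12 over day 10, was 0.901 for replicate 1, 0.756 for replicate 2 and 0.612 for replicate 3. With 3 pairs the exact sign-flip test cannot go below p = 0.25, the value it gave. For comparison, the mean share with all entries was 18.8% at day 0, 11.3% at day 4 and 1.12% at day 8.

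**Figure D1:**
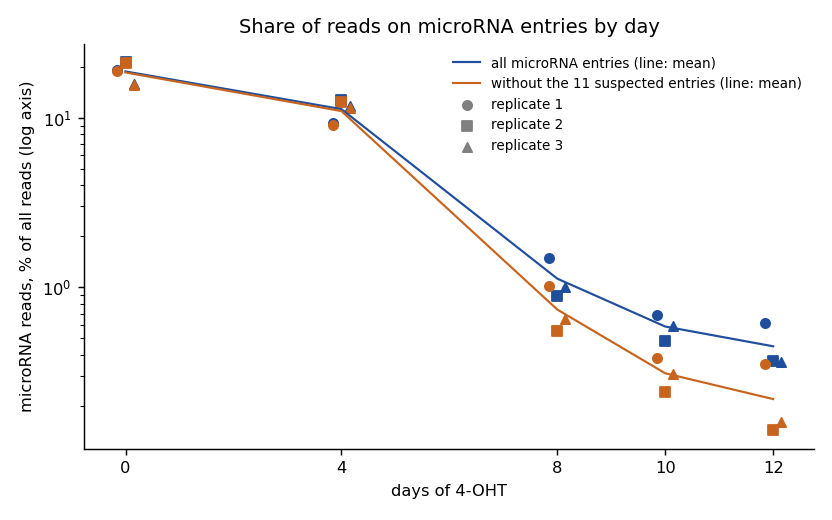
MicroRNA reads as a percent of all reads (log axis) in each of the 15 libraries by day of 4-OHT, with lines through the means for all entries and for all but the suspected entries; replicates are offset sideways. The mean with all entries was 0.448% at day 12 and 0.586% at day 10, and 1 day 12 library lay inside the range of day 10.

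Most microRNAs were lower at day 12, by less than a halving at the median. The log2 change in RPM, day 12 minus day 10, was below 0 for 214 of the 260 tested (82.3%), with a median of -0.55. Among the 135 well covered ones it was below 0 for 122, with a median of -0.63. Few changes passed the test for a single microRNA. In edgeR's quasi-likelihood test with Benjamini-Hochberg adjustment, 12 of 260 were lower (4.62%) and 1 was higher (0.385%). At an unadjusted p under 0.05 the counts were 60 lower (23.1%) and 1 higher (0.385%). In 67 of the 260 (25.8%) the 3 day 12 libraries all lay below the 3 day 10 libraries, and in 2 (0.769%), miR-6240 and miR-6538, they all lay above.

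The call count depended on how the error was estimated. Libraries with the same replicate number were taken as pairs, and with the replicate as a block 19 were lower (7.31%) and 1 was higher (0.385%). The 7 called with the block and not without it, named after their values were seen, were miR-21a-5p, miR-25-3p, miR-16-5p, miR-135b-3p, miR-34a-5p, miR-205-5p and miR-19b-3p. A model of the days 12 and 10 libraries alone left 1 call, miR-1949. The total of 13 became 28 without replicate 1 of day 12 and 7 without replicate 3 of day 12. It became 2 without replicate 1 of day 10 and 2 without replicate 3 of day 10. Of the 13, miR-1949 and miR-143-3p were still called without replicate 1 of day 10, and the adjusted p of the other 11 lay between 0.075 and 0.25. MiR-1949 and miR-6240 were still called without replicate 3 of day 10, and the adjusted p of the others lay between 0.051 and 0.60. Without replicate 1, 2 or 3 of day 12 the calls shared with the 13 numbered 10, 8 and 7, and without replicate 2 of day 10 they numbered 11.

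The changes did not run in the order of how much of a microRNA was left. Of the 260, 169 held less than 1% of their day 0 level at day 12, and 29 held more than 25%. Among the well covered ones the median log2 change was -0.45 for the 22 that had kept under 2% of their day 0 level at day 8. It was -0.64 for the 58 that had kept 2 to 5%, -0.81 for the 23 at 5 to 25%, and -0.62 for the 32 at 25% or more. Of the 12 called lower, 10 held less than 1% of their day 0 level at day 12, and the exceptions were miR-1949 and miR-290b-3p.

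**Figure D2:**
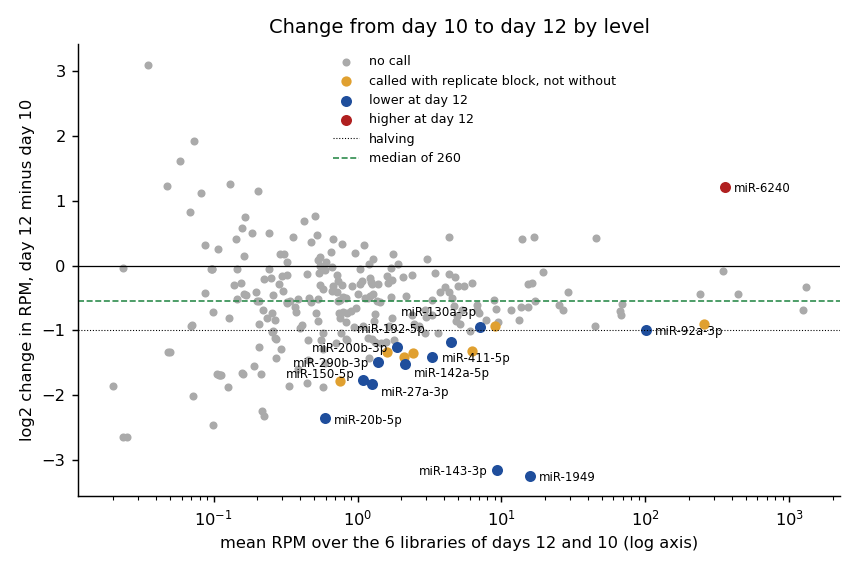
The log2 change in RPM, day 12 minus day 10, against the mean RPM over the 6 libraries (log axis), with each point a tested microRNA and the 4 without a read in these libraries left out. Blue points were lower at day 12 and the red point higher in edgeR's test, and orange points were called with the replicate block and not without it; the dashed line is the median of -0.55 and the dotted line a halving.

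At the median, the fall between day 10 and day 12 was slower than in the interval before. Among the well covered microRNAs the median log2 change per day was -0.15 from day 0 to day 4 and -0.97 from day 4 to day 8. It was -0.72 from day 8 to day 10 and -0.32 from day 10 to day 12. From day 8 to day 10, 171 of 260 microRNAs were lower (65.8%) and 2 were higher (0.769%) in edgeR's test. The change of rate was tested directly, as the day 10 to 12 change minus the day 8 to 10 change, in a contrast that takes the shared day 10 libraries into account. The fall slowed for 33 of 260 (12.7%) and the change was more negative for 2 (0.769%), miR-1949 and miR-143-3p.

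Of the 33 whose fall slowed, 25 had a 95% interval for the day 10 to 12 change that included 0, and 1, miR-130a-3p, was also called lower. Among all 260 tested the interval lay wholly below 0 for 60 (23.1%), so intervals that included 0 were common there too. Of the 33, 23 were still below 0 from day 10 to day 12, where 214 of all 260 were (82.3%). The median log2 change of the 33 was -2.54 from day 8 to day 10 and -0.29 from day 10 to day 12. All 260 tested had medians of -1.63 and -0.55. The 33 were chosen by the difference between these intervals, so the gap between their medians is no separate evidence of slowing. The count of 35 changes of rate became 22, 5 and 8 without replicate 1, 2 and 3 of day 10. It became 11 with aligned reads as the library size and 3 in a model of days 8, 10 and 12 alone.

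**Figure D3:**
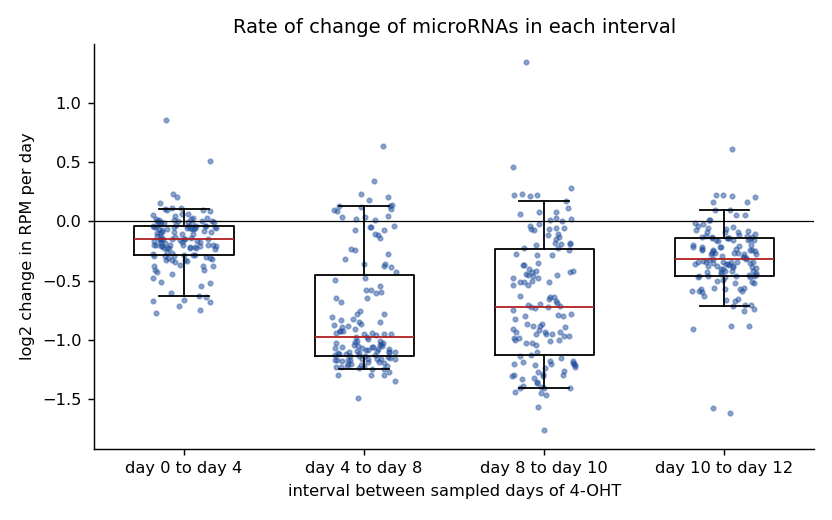
The log2 change in RPM per day for the 135 well covered microRNAs in each interval between sampled days; points are microRNAs, boxes span the quartiles with the median in red, and whiskers the 5th to 95th percentile. The median is -0.72 per day from day 8 to day 10 and -0.32 per day from day 10 to day 12.

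MiR-99b-5p, a member of the miR-99/100 family, had the most significant slowing. It stood at 5.77, 5.79 and 3.47 RPM at day 12, against 4.20, 2.88 and 4.02 RPM at day 10. At day 8 its mean was 42.7 RPM, and the ranges of day 12 and day 10 overlapped. Its log2 change from day 10 to day 12 was 0.44 with a 95% interval from -0.39 to 1.26. The change of rate was 3.97 ± 0.74 on the log2 scale (SE; edgeR adjusted p = 0.0017).

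MiR-191-5p, a broadly made microRNA, stood at 14.2, 11.9 and 15.4 RPM at day 12, against 18.3, 14.8 and 17.5 RPM at day 10. The ranges of the 2 days overlapped slightly, and its mean at day 8 had been 111 RPM. Its change of rate was 2.43 ± 0.47 (SE; edgeR adjusted p = 0.0017). Both microRNAs kept this call in all 17 alternatives tried.

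A change that misses the threshold does not show that loss had stopped, so the 95% intervals were used to bound it. For 45 of 260 microRNAs (17.3%) the interval lay wholly above -1, which leaves out a halving within these 2 days. For 22 (8.46%) it lay between -1 and 1, and 9 of these also had a slowed fall. For 60 (23.1%) it lay wholly below 0, and for 3 (1.15%) wholly below -1. The 3 were miR-1949, miR-143-3p and miR-20b-5p. For 4 (1.54%), without a read in these libraries, there was no interval. No microRNA had an interval both wholly below 0 and wholly above -1. The median half-width among the well covered ones was 0.78, so for most of the 260 neither a stop nor a halving could be told at this depth.

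MiR-1949 showed the most significant change and, of the 13 calls in RPM, was the one made under all 14 alternatives tried. Its identifier lies on chromosome 18 from 35554612 to 35554635 (mm10, plus strand), in an exon of the gene Mir1949, which GENCODE M21 classes as a small nucleolar RNA. It had 24, 56 and 49 reads at day 12, against 318, 402 and 447 reads at day 10. In RPM these were 1.82, 3.77 and 3.40 at day 12 and 25.7, 28.2 and 31.5 at day 10, with a wide gap between the groups.

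The log2 change of miR-1949 was -3.24 ± 0.36 (SE; edgeR adjusted p = 4.9e-07). Its level at day 10 was itself out of the course of the other days. The RPM values were 6.08, 4.67 and 12.4 at day 0 and 4.51, 3.41 and 5.41 at day 8. MiR-1949 was thus high at day 10 alone and stood at day 12 near its day 8 level. Its change of rate was -5.92 ± 0.55 (SE; edgeR adjusted p = 1.5e-08).

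MiR-143-3p, a microRNA of smooth muscle and fibroblasts, had 1.14, 0.539 and 3.96 RPM at day 12, against 2.35, 2.95 and 44.8 RPM at day 10. A single library, replicate 3 of day 10, held 636 of its reads, and replicate 3 of day 12 was also the highest of its day. The log2 change was -3.15 ± 0.74 (SE; edgeR adjusted p = 0.020). Without that day 10 library it was -0.49 with an adjusted p of 0.60, in a range of 3.8e-14 to 0.60 over the alternatives. The other markers of smooth muscle and fibroblasts did not pass the filter.

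**Figure D4:**
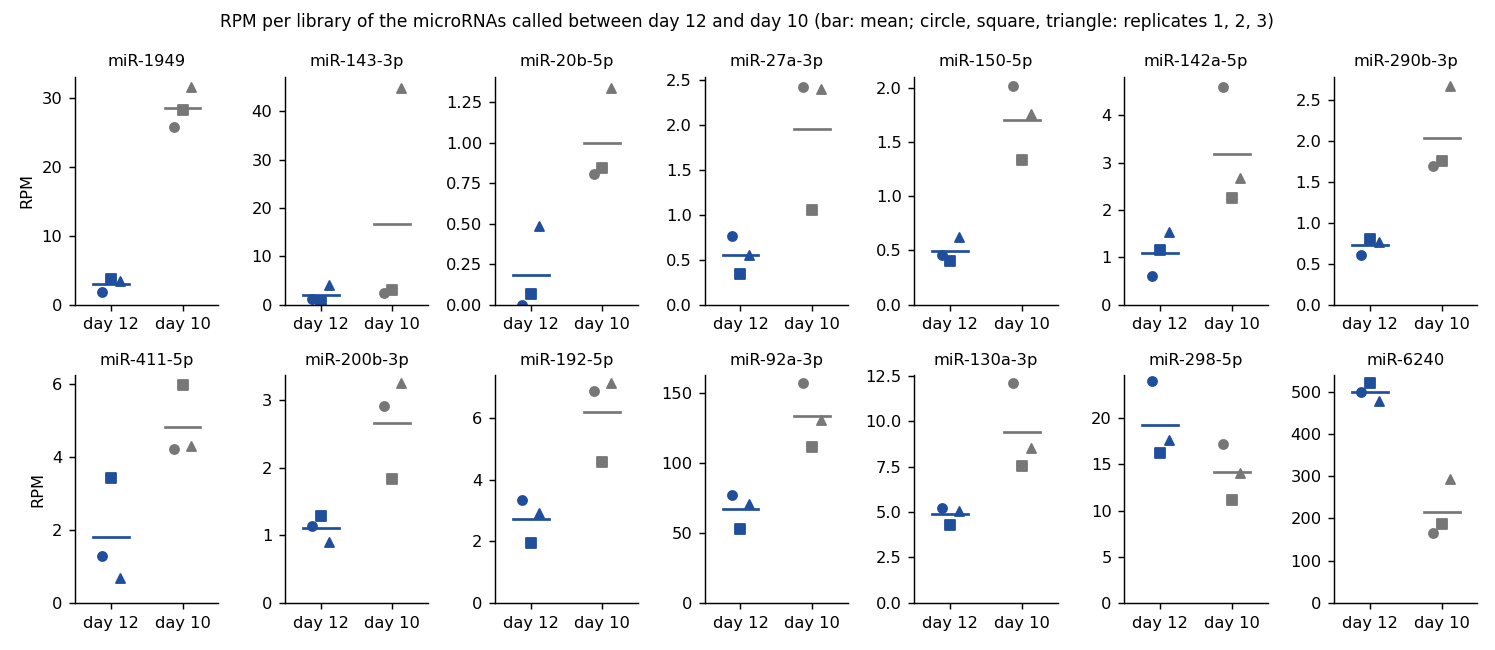
RPM per library of the 14 microRNAs called between day 12 (left, blue) and day 10 (right, grey) in RPM or relative to other microRNAs; bars are means and marker shapes the replicates. In 11 of the 12 lower ones the day 12 libraries all lie below the day 10 libraries, against 67 of all 260 tested (25.8%). The 12 were called from these same libraries, so this separation is no further evidence. For miR-143-3p the day 10 mean rests on replicate 3.

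MiR-92a-3p had the highest level of the 12 called lower. It is made from the miR-17-92 cluster (chromosome 14, 115044476 to 115044496, plus strand, exon of Mir17hg) and from its paralogous copy on chromosome X, where it lies from 52741854 to 52741874. It stood at 77.6, 53.1 and 70.8 RPM at day 12, against 158, 112 and 131 RPM at day 10. The groups did not overlap, and the log2 change was -0.99 ± 0.26 (SE; edgeR adjusted p = 0.026). Reads of miR-92a-3p match both copies exactly, so the counting could have left part of them out.

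MiR-27a-3p, from the miR-23a/27a/24-2 cluster on chromosome 8 (84208727 to 84208747, plus strand), had 10, 5 and 8 reads at day 12, against 30, 15 and 34 reads at day 10. Replicate 2 was the lowest of both days and the groups did not overlap. The log2 change was -1.82 ± 0.44 (SE; edgeR adjusted p = 0.020). MiR-27b-3p, with the same seed as printed above, stood at 17.1, 10.4 and 14.1 RPM at day 12, against 22.1, 16.5 and 22.1 RPM at day 10. Its log2 change was -0.54 with a 95% interval from -1.09 to just under 0, and it did not pass the adjusted test (edgeR adjusted p = 0.21).

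The ratio of miR-27a-3p to miR-27b-3p reads, a pair singled out after its values were seen, was 0.0442, 0.0325 and 0.0394 at day 12, against 0.110, 0.0638 and 0.109 at day 10. The ratios of the 2 days did not overlap. An exact permutation test gave p = 0.1, the smallest that 3 against 3 libraries allow. As the pair was chosen by these values, this p is no separate evidence of a difference.

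MiR-130a-3p (chromosome 2, 84741116 to 84741137, minus strand) lay closest to the threshold. It stood at 5.24, 4.31 and 5.07 RPM at day 12, against 12.1, 7.51 and 8.53 RPM at day 10, without overlap. The log2 change was -0.94 ± 0.28 (SE; edgeR adjusted p = 0.0498), and 8 of 14 alternatives kept it past the threshold. Its seed partner miR-301a-3p, in an intron of Ska2, averaged 1.93 ± 0.43 RPM at day 12 and 1.90 ± 0.38 RPM at day 10 (SD, n = 3 each), a log2 change of 0.02. MiR-130b-3p, the other partner, had a log2 change of -0.17. Whether these seed partners differ from miR-130a-3p was not tested.

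MiR-192-5p (chromosome 19, 6264857 to 6264877, plus strand), a microRNA of epithelia and a p53 target in human cells, had 44, 29 and 42 reads at day 12, against 85, 65 and 101 reads at day 10. Its log2 change was -1.18 ± 0.31 (SE; edgeR adjusted p = 0.026). MiR-200b-3p (chromosome 4, 156055685 to 156055706, minus strand, intron of Ttll10) represses the epithelial-mesenchymal factors Zeb1 and Zeb2. It had 15, 19 and 13 reads at day 12, against 36, 26 and 46 reads at day 10, and a log2 change of -1.26 ± 0.34 (SE; edgeR adjusted p = 0.032). Neither microRNA overlapped between the days.

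MiR-20b-5p (chromosome X, 52742159 to 52742181, minus strand), from the miR-106a-363 cluster, had 0, 1 and 7 reads at day 12, against 10, 12 and 19 reads at day 10. The 0 allows up to 0.228 RPM in that library. Its log2 change of -2.36 ± 0.64 (SE; edgeR adjusted p = 0.032) rests on few reads. Its seed partners miR-93-5p and miR-17-5p had changes of -0.41 and -0.53 that did not pass, and the difference from them was not tested.

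MiR-142a-5p (chromosome 11, 87756867 to 87756887, plus strand, intron of Mir142hg) and miR-150-5p are best known from blood cells. MiR-142a-5p had 8, 17 and 22 reads at day 12, against 57, 32 and 38 reads at day 10, a log2 change of -1.52 ± 0.37 (SE; edgeR adjusted p = 0.021). MiR-150-5p had 6, 6 and 9 reads at day 12, against 25, 19 and 25 reads at day 10, a log2 change of -1.76 ± 0.42 (SE; edgeR adjusted p = 0.020). Both were separated between the days. Both were already present at day 0, with means of 546 and 104 RPM, and kept 0.20% and 0.48% of that at day 12.

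MiR-411-5p (chromosome 12, 109710190 to 109710210, plus strand) belongs to the imprinted Dlk1-Dio3 cluster, which is expressed from the maternal chromosome. It had 17, 51 and 10 reads at day 12, against 52, 85 and 61 reads at day 10. In RPM replicate 2 was the highest of both days, at 3.43 at day 12 and 5.97 at day 10, and the groups did not overlap. The log2 change was -1.41 ± 0.40 (SE; edgeR adjusted p = 0.036), and leaving out a library kept the call in 1 of 6 cases. Other calls were as fragile, with 1 of 6 for miR-290b-3p and 2 of 6 each for miR-92a-3p, miR-192-5p, miR-20b-5p and miR-130a-3p.

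MiR-290b-3p (chromosome 7, 3218638 to 3218659, minus strand) lies on the strand opposite to miR-290a-5p, and the identifiers share 21 bases. It had 8, 12 and 11 reads at day 12, against 21, 25 and 38 reads at day 10, a log2 change of -1.48 ± 0.43 (SE; edgeR adjusted p = 0.042). It kept 29.7% of its day 0 level at day 12, from 2.44 RPM at day 0, where the whole cluster kept 0.389%. Kept shares of other scarce members varied, at 58.5% for miR-292b-3p, 21.6% for miR-295-5p and 17.4% for miR-292b-5p. They were 2.07% for miR-294-5p, 1.06% for miR-290a-3p and 0.341% for miR-290a-5p, the last below the whole cluster. The strand setting of the counting is not given in the sources used here, so reads of the opposite strands could not be told apart with certainty.

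MiR-6240 (chromosome 5, 114851973 to 114851998, plus strand) was the only entry called higher. It stood at 500, 521 and 479 RPM at day 12, against 166, 186 and 293 RPM at day 10. The groups were well apart, with replicate 3 of day 10 nearest to day 12. The log2 change was 1.22 ± 0.31 (SE; edgeR adjusted p = 0.025), and without replicate 1 or 2 of day 10 it no longer passed, at adjusted p of 0.12 and 0.060 in a range of 0.0034 to 0.12 over the alternatives. MiR-6240 is among the suspected entries, and at day 12 its level was 732% of that at day 0, where most microRNAs had lost nearly all of theirs.

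Relative to other microRNAs, with microRNA reads as the library size and TMM factors, the median log2 change of the 260 was -0.07 instead of -0.55. On that scale 2 were lower (0.769%), miR-1949 and miR-27a-3p, and 2 were higher (0.769%), miR-298-5p and miR-6240. Without adjustment 38 of 260 had p under 0.05 (14.6%). MiR-1949 fell by 2.68 (edgeR adjusted p = 0.0053) and miR-27a-3p fell by 1.34 (edgeR adjusted p = 0.036). MiR-6240 rose by 1.74 on this scale (edgeR adjusted p = 0.036). The call of miR-27a-3p held in 2 of the 6 fits that left out a library and that of miR-6240 in 1 of 6, while miR-1949 and miR-298-5p held in all 6. The lost calls had adjusted p between 0.052 and 0.26.

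MiR-298-5p (chromosome 2, 174267553 to 174267575, minus strand) lies near the imprinted Gnas locus and had 5207 RPM at day 0. It stood at 24.0, 16.2 and 17.6 RPM at day 12, against 17.2, 11.2 and 14.0 RPM at day 10. In each replicate pair day 12 was higher, although the ranges overlapped. In RPM the log2 change was 0.45 ± 0.27 and did not pass (SE; edgeR adjusted p = 0.29). Relative to the other microRNAs it was 0.95 (edgeR adjusted p = 0.0012), past the threshold in all 15 alternatives. Its fall from day 8 to day 10 had been -1.42, and its change of rate was 1.87 ± 0.49 (SE; edgeR adjusted p = 0.018).

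The next in line upward in RPM, which did not pass, were miR-6538, miR-6236, miR-99b-5p and miR-421-3p, with log2 changes of 0.41, 0.43, 0.44 and 0.33. MiR-6538 and miR-6236 are suspected entries as well. MiR-6538 had 17.1, 13.3 and 16.9 RPM at day 12, against 10.6, 12.1 and 12.9 RPM at day 10, without overlap. Relative to other microRNAs the next upward were miR-6538, miR-92a-1-5p, miR-421-3p and miR-99b-5p, and the next downward miR-192-5p, miR-92a-3p and miR-200b-3p. None of these passed on that scale, where their adjusted p lay between 0.18 and 0.20.

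The 10 most abundant entries carried 85.9% of microRNA reads at day 12 and 84.5% at day 10. Of them miR-92a-3p was lower and miR-6240 higher. MiR-182-5p, of the cluster with miR-183 and miR-96 on chromosome 6, had the highest mean over the 6 libraries, at 2211, 582 and 680 RPM at day 12, against 1940, 1030 and 1376 RPM at day 10. Replicate 1 was the highest of both days, and its day 12 value exceeded every day 10 value. MiR-2137 was higher than miR-182-5p in the day 10 mean, at 1524 against 1448 RPM, and in replicates 2 and 3 of day 12. The log2 change of miR-182-5p was -0.32 with a 95% interval from -1.09 to 0.44, and without replicate 1 of day 12 it was -1.20 (edgeR adjusted p = 0.019, in a range of 0.019 to 1 over the alternatives).

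MiR-21a-5p, an abundant microRNA of many proliferating cells, stood at 235, 176 and 128 RPM at day 12, against 386, 317 and 298 RPM at day 10. The groups did not overlap. The log2 change was -0.89 ± 0.29 (SE; edgeR adjusted p = 0.072), and it passed with the replicate as a block (adjusted p = 0.033, in a range of 0.024 to 0.27 over the alternatives). MiR-22-3p had 77.9, 38.2 and 33.4 RPM at day 12, against 96.4, 68.1 and 89.9 RPM at day 10, with overlap through replicate 1 of day 12. Its log2 change of -0.77 did not pass (edgeR adjusted p = 0.11), while its fall had slowed by 1.65 ± 0.53 (SE; edgeR adjusted p = 0.040).

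MiR-2137, miR-5099 and miR-6539, the other suspected entries among the 10, had log2 changes of -0.68, -0.44 and -0.09, none of which passed. At day 12 they held 109%, 33.2% and 90.7% of their day 0 levels. MiR-183-5p had a log2 change of -0.44 with a 95% interval from -1.06 to 0.18. Together the suspected entries had 2652, 2226 and 2008 RPM at day 12, against 3032, 2427 and 2816 RPM at day 10, with overlap. Of 10 tested, 1 was higher, none was lower, and the median log2 change was -0.23. Their part in the totals above is shown by the share without them, and whether they are microRNAs was not tested.

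The miR-290 cluster, which holds the stem cell seed, was lower as a whole in every day 12 library than in any day 10 library. Its summed level was 165, 112 and 137 RPM at day 12, against 232, 174 and 212 RPM at day 10, or 66.9% of the day 10 mean. Of 17 tested members 1, miR-290b-3p, was lower, where 4.62% of all tested were, and the median log2 change was -0.63, near the -0.55 of all tested. Relative to other microRNAs the median of the members was -0.15.

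MiR-295-3p, the most abundant member, stood at 60.3, 45.6 and 58.5 RPM at day 12, against 91.4, 73.3 and 82.3 RPM at day 10, without overlap. Its log2 change of -0.59 did not pass (edgeR adjusted p = 0.13), but its fall had slowed by 1.93 ± 0.44 (SE; edgeR adjusted p = 0.0088). MiR-293-3p had 5.99, 3.50 and 5.13 RPM at day 12, against 6.95, 5.61 and 5.71 RPM at day 10, with overlap. Its fall had slowed by 2.81 ± 0.63 (SE; edgeR adjusted p = 0.0088). In all, 6 of 17 members slowed, where 12.7% of all tested did, and none was faster.

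The miR-302 cluster with miR-367 marks pluripotent cells. Of its members, miR-302b-3p and miR-302d-3p carry the seed of miR-295-3p, while miR-367-3p carries the miR-25/92 seed. The cluster held 13.0, 10.4 and 6.80 RPM at day 12, against 14.4, 12.4 and 11.7 RPM at day 10. Replicate 1 of day 12 lay inside the day 10 range. None of 7 tested members was called, which at 4.62% lower among all tested sets the cluster apart in no way. The median log2 change was -0.11, or 0.38 relative to other microRNAs. For the 4 well covered members the median in RPM was -0.39, with all 4 below 0. The summed level at day 12 was 78.6% of the day 10 mean. MiR-302a-3p had 3.64, 3.84 and 2.57 RPM at day 12, against 3.80, 4.28 and 2.75 RPM at day 10, and its 95% interval from -0.76 to 0.55 left out a halving.

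The miR-17-92 cluster and its paralogs, known as growth-promoting microRNAs, were lower in sum in every day 12 library. They held 103, 71.2 and 96.2 RPM at day 12, against 195, 140 and 166 RPM at day 10, which is 54.0% of the day 10 mean and without overlap. Most of this sum is miR-92a-3p. Of 19 tested members 2 were lower, miR-92a-3p and miR-20b-5p, and 4 slowed, where 4.62% of all tested were lower and 12.7% slowed. The median log2 change was -0.49, near the -0.55 of all tested, and relative to other microRNAs it was -0.0049. MiR-25-3p, with the seed of miR-92a-3p, had 6.53, 4.65 and 7.49 RPM at day 12, against 14.8, 10.4 and 10.4 RPM at day 10, and did not pass (log2 change -0.93; edgeR adjusted p = 0.064). MiR-363-3p, with the same seed, had a log2 change of 0.19 with a 95% interval from -0.60 to 0.97.

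The miR-182 cluster held 2515, 754 and 884 RPM at day 12, against 2277, 1287 and 1687 RPM at day 10, and its range at day 12 spanned that of day 10. None of 5 tested members was called, which cannot be set apart from the 4.62% of all tested that were lower. The median log2 change was -0.32, or 0.05 relative to other microRNAs. The arms of the miR-182 hairpin differed in how much was left. MiR-182-5p kept 3.04% of its day 0 level at day 12, while miR-182-3p, the minor arm, kept 102%. MiR-182-3p had 24.2, 17.2 and 15.1 RPM at day 12, against 21.3, 17.5 and 21.9 RPM at day 10, and a 95% interval from -0.69 to 0.49. Over the 23 hairpins with both arms well covered, the arm that was minor at day 0 had kept more at day 12 in 17. This count cannot show how minor arms behave, because the day 0 level both chose the minor arm and divided its day 12 level. Scarce arms also entered only if well covered at days 10 and 12, which left 23 of 58 hairpins. Among the 17 were miR-16-5p and miR-30c-5p, which have more than 1 exact copy in the genome. The median log2 change from day 10 to day 12 was -0.69 for the minor arm and -0.69 for the major arm.

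The miR-15/16 family, which restrains the cell cycle, had 15.6, 7.27 and 10.6 RPM at day 12, against 24.6, 15.0 and 22.9 RPM at day 10, with overlap. None of 10 tested members was called, which cannot be set apart from the 4.62% of all tested that were lower. The median log2 change was -0.62, or -0.14 relative to other microRNAs. MiR-16-5p had more reads at day 10 than at day 0, with means of 8.85 RPM at day 10 and 2.81 RPM at day 0. It matches the genome exactly at 2 places, and such reads can fall below the mapping quality limit, so its level is uncertain.

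The miR-200 family of epithelial microRNAs held 3.19, 2.22 and 2.22 RPM at day 12, against 5.66, 4.77 and 6.27 RPM at day 10, which is 45.7% of the day 10 mean and without overlap. Of 5 tested members 1, miR-200b-3p, was lower, where 4.62% of all tested were, and with 5 members a single call cannot be set apart from that share. The other 4 had log2 changes below 0 that did not pass, and the median was -0.94, or -0.51 relative to other microRNAs. The miR-30 family held 44.7, 23.4 and 30.3 RPM at day 12, against 59.3, 38.9 and 55.9 RPM at day 10, with overlap. None of its 10 tested members was called, where 4.62% of all tested were lower, with a median of -0.50, or -0.02 relative to other microRNAs.

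The other broadly made microRNAs held 492, 303 and 275 RPM at day 12, against 708, 508 and 582 RPM at day 10, without overlap. Of 40 tested 2 were lower, miR-27a-3p and miR-130a-3p, with a median log2 change of -0.50, or -0.02 relative to other microRNAs. The lower share is close to the 4.62% of all tested. The fall slowed for 17 of the 40, where it did for 12.7% of all tested. The Dlk1-Dio3 cluster held 14.6, 37.5 and 11.4 RPM at day 12, against 33.8, 45.2 and 33.9 RPM at day 10. Replicate 2 was the highest of both days, and at day 12 it lay inside the day 10 range. Of 38 tested members 1 was lower, a share not above the 4.62% of all tested. The median was -0.87, or -0.47 relative to other microRNAs, where all tested had -0.55 and -0.07. Of the 38, only 8 were well covered, so these medians rest mostly on members with few reads. In RPM the 8 had a median of -0.75, where all well covered microRNAs had -0.63.

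Smaller groups were at the edge of detection. With so few tested, an absence of calls cannot be set apart from the 4.62% of all tested called lower. The Sfmbt2 intronic families, near-identical copies, summed to a mean of 1.36 ± 0.17 RPM at day 12 and 2.71 ± 0.32 RPM at day 10 (SD, n = 3 each), with none of 6 tested called. Their median was -0.87, or -0.37 relative to other microRNAs. MicroRNAs that bypass Drosha but need Dicer summed to 2.62 ± 1.16 RPM at day 12 and 3.26 ± 0.50 RPM at day 10 (SD, n = 3 each), with none of 3 called and a median of -0.14, or 0.31 relative to other microRNAs. The let-7 family, held down by LIN28 in stem cells, summed to 1.34 ± 0.61 RPM at day 12 and 1.73 ± 1.56 RPM at day 10 (SD, n = 3 each), and 1 of its 23 members was tested. MiR-451a, which matures without Dicer and belongs to red blood cells, had 2, 3 and 1 reads at day 12, against 40, 3 and 6 reads at day 10, and was not tested.

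**Figure D5:**
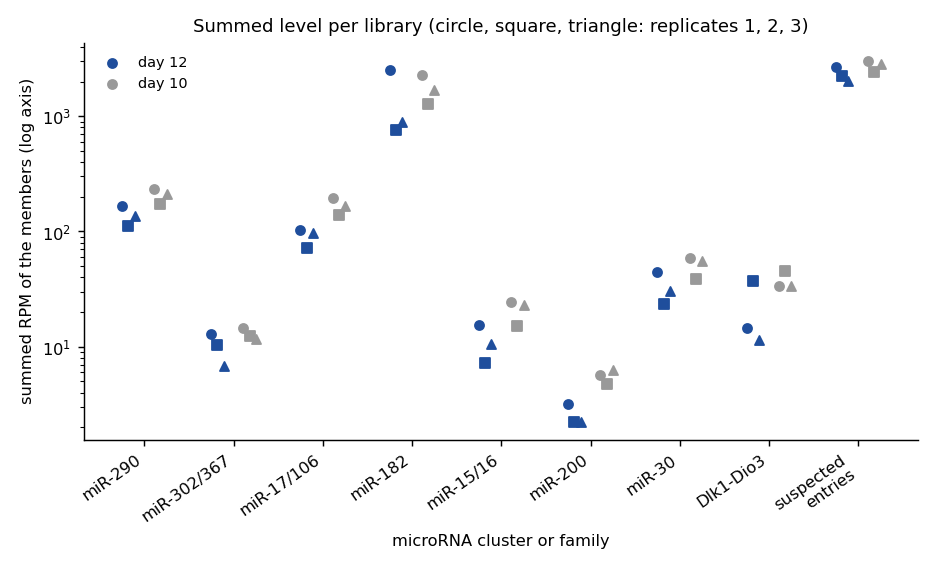
Summed RPM per library (log axis) of microRNA clusters and families, with day 12 (blue) left of day 10 (grey) and marker shapes the replicates. The miR-290, miR-17 and miR-200 sums do not overlap between the days, while replicate 1 of the miR-182 cluster and replicate 2 of the Dlk1-Dio3 cluster stand high at day 12.

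At day 12 and day 10 the markers of liver, nerve, muscle and endothelium had few reads. The miR-290 cluster of stem cells had a mean of 138 RPM at day 12 and 206 RPM at day 10, against 35444 RPM at day 0. At day 0 the neural, endothelial and muscle markers summed to 35.2, 35.1 and 3.98 RPM, and the liver marker to 0. Most microRNAs had lost nearly all of their day 0 level, so few reads at days 12 and 10 cannot tell which cell types were present. The liver marker miR-122 had no read at day 12 and 1, 1 and 0 reads at day 10. Neural markers summed to 5, 3 and 2 reads at day 12 and 4, 2 and 4 at day 10, and muscle markers to 2, 4 and 2 reads at day 12 and 1, 1 and 3 at day 10. Endothelial miR-126 had 0, 1 and 1 reads at day 12, against 1, 1 and 10 at day 10. The blood markers summed to 1.90, 1.95 and 2.64 RPM at day 12, against 9.14, 4.14 and 4.65 RPM at day 10, without overlap, and to 695 RPM at day 0. Of 4 tested blood markers 2 were lower, miR-142a-5p and miR-150-5p, where 4.62% of all tested were. MiR-150-3p, the other arm of the same hairpin, went the other way without passing. It had 10, 6 and 6 reads at day 12, against 7, 3 and 3 reads at day 10, with a log2 change of 0.68 and a 95% interval from -0.51 to 1.88. The markers of fibroblasts and smooth muscle summed to 342 RPM at day 0 and, at day 10, to 45.3 RPM in replicate 3, nearly all of it miR-143-3p. In replicate 3 of day 10, miR-143-3p and miR-126 were both at their highest among the 6 libraries. In bulk libraries, fewer cells of a type and less RNA per cell cannot be told apart.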

How the data were processed

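The members and lists were chosen with earlier results of these data known. Per the labels' protocols, the authors trimmed adapters (cutadapt 1.8), mapped reads to mm10 (Bowtie2) and counted miRBase 21 microRNAs with HTSeq. The deposited values are raw counts for 2045 entries and 5 summary lines of unassigned reads, which served only as library totals. Copies were summed to 1907 identifiers, of which RefSeq names 1905. The 4sU libraries were not used.

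Counts were tested with edgeR 4.0.16 (glmQLFit, glmQLFTest, prior count 0.125) in R 4.3.3, with day as group in 15 libraries, after filterByExpr. RPM took every read as library size with no further factor, and the relative scale took microRNA reads with TMM factors. P-values were adjusted by Benjamini-Hochberg over 260 microRNAs, threshold 0.05, and measure only the spread between these libraries. The SE is the log2 change over the root of F. DESeq2 1.42.0, other filters and scalings, a replicate block and left-out libraries were alternatives. The code was tested on simulated counts.

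Libraries of day 12 and day 10 with the same number deviated together. In RPM the correlations were 0.43, 0.59 and 0.34 for replicates 1, 2 and 3, each above those with other numbers. With TMM factors they were weaker, at 0.24, 0.27 and 0.26, again above those with other numbers. The pairing by number rests on these correlations. Named microRNAs were tested list members, the 10 most abundant, and the largest calls per scale and direction at 1 RPM or more, or the 5 of smallest p where fewer than 5 passed. Others, including those singled out for their change of rate, were named after their values were seen. Figures were drawn with matplotlib 3.10.9.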

Additional observations from a re-analysis of the deposited data

Results flagged for a closer look

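The change from day 10 to day 12 differed from the change from day 8 to day 10, by a direct test of the difference in edgeR, for 33 microRNAs whose fall slowed and 2 whose change turned more negative. Among the named ones the log2 difference was 3.97 for miR-99b-5p, 2.81 for miR-293-3p, 2.43 for miR-191-5p, 1.93 for miR-295-3p, 1.87 for miR-298-5p, 1.67 for miR-130a-3p and 1.65 for miR-22-3p. It was -5.92 for miR-1949, which was high at day 10 alone, and -3.71 for miR-143-3p, which rests on replicate 3 of day 10. With groups of 3 libraries no test for a single outlying library was made.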

How the results depend on the processing

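The total of 13 calls in RPM became 25 with DESeq2, 24 with a filter on days 10 and 12, 21 among microRNAs with a mean of at least 10 reads, 1 in a fit of these days alone and 20 with the replicate block. Without 1 library it ranged from 2 to 28. The 4 relative calls became 25 with DESeq2 and 17 without a filter, and ranged from 2 to 8 without 1 library. The 35 changes of rate became 11 with aligned reads as library size and 3 in a fit of the contrasted days, and ranged from 5 to 43 without 1 library. The median log2 change of -0.55 was 0 without a filter, where 1225 were fitted and 695 had a read in these libraries, and ranged from -0.76 to -0.47 without 1 library. The median change of rate of 1.06 was 0 without a filter, 0.83 with the filter on days 10 and 12, and 0.88 with aligned reads, and ranged from 0.78 to 1.22 without 1 library. The 45 intervals above -1 became 81 without a filter and ranged from 25 to 51 without 1 library. The change of rate of miR-143-3p ranged from -4.88 to 1.60, positive without replicate 3 of day 10. Except where a value above shows it, the cause was not tested.

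The replicate block left 4 relative calls and 34 changes of rate. The log2 share changed by -0.42, and from -0.68 to -0.29 without 1 library, below 0 in each case. For named microRNAs, 662 of the values under alternatives kept their side of the threshold, 90 lost the call, 31 gained one and 1 call reversed. The 662 include changes of direction where neither fit passed. On the relative scale, for example, the log2 change of miR-182-5p ranged from -0.44 to 0.28. Of the 12 lower calls, 11 had a mean of at least 10 reads, and a halving of scarcer microRNAs was mostly not detectable at this depth. Among the well covered microRNAs, falls of more than a halving also went without a call, such as -1.77 for miR-19b-3p and -1.41 for miR-34a-5p.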

Other observations

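Some identifiers with several exact copies in the genome ran against the course of the others. MiR-30c-5p had 4.25, 0.0673 and 0.902 RPM at day 12, against 5.74, 0.140 and 3.81 RPM at day 10, while its day 0 mean was 0.0278 RPM. Replicate 2 was the lowest of both days.

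The number of identifiers with at least 1 read was 405, 375 and 396 in the day 12 libraries, against 418, 411 and 446 in the day 10 libraries. Of the tested microRNAs, 7 had no read in any day 12 library and 5 had none in any day 10 library, with 4 of these at 0 in all 6.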
